A study of Mus musculus with 18 samples.

Results

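Interferon response genes were followed here in mouse regulatory T (Treg) cells, the CD4+Foxp3+ T cells that restrain other immune cells. The set is a given list of 41 mouse symbols of the type I and type II interferon responses. Each was matched to an Ensembl gene ID, giving 41 of the 55487 gene IDs in the data. Poly(A) RNA was sequenced from Treg cells freshly sorted from wild-type mice that had received no treatment. There were 6 groups named by site (peripheral blood, bone marrow, lung, liver, lymph node and spleen), each with 3 libraries, 18 in all. The labels do not state the strain, sex or age of the mice, the sorting gates, how each organ was dissociated, or how many animals went into a library. They also do not say that the 3 libraries of a site came from separate animals, so the p-values measure the spread between these libraries, which may be technical.

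Type I interferons bind the receptor made of Ifnar1 and Ifnar2, and interferon gamma binds the one made of Ifngr1 and Ifngr2. Both receptors signal through Janus kinases to STAT proteins. The complex that holds Stat2 and Irf9 binds the interferon-stimulated response element (ISRE), and interferon gamma acts through the gamma-activated site (GAS). The genes they switch on degrade viral RNA, block viral entry and release, sense foreign nucleic acid, attack vacuoles that hold microbes and load peptides on MHC class I molecules. Many are also transcribed at a low level without infection. These mice had received no treatment, and whether they carried an infection is not known here.

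Promoter sequences of the members were searched for ISRE and GAS letters. The members were listed as interferon response genes, so a raised share of these elements is not an independent finding. RefSeq promoter windows (GRCm38.p6, 250 bases before to 50 after a transcript start) were matched by symbol for 31 of the 41 genes. The ISRE core was searched as GAAA, NN and GAAA in 1 run, and the GAS as TTCNNNGAA, on both strands. A match of either could overlap a match of the other. The ISRE core was found in 19 of the 31 genes (61.3%), against 3.99% of the 27025 genes with a window. TTCNNNGAA was found in 11 of the 31 (35.5%), against 9.55% of all genes. The windows of 7 genes (Bst2, Gbp7, Ifitm3, Igtp, Irgm2, Oas1a and Tgtp1) held both, 22.6% of the 31 against 0.54% of all genes. These are matches of letters, not measured binding sites.

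The 3 GTPase genes Igtp, Irgm2 and Tgtp1 of chromosome 11 carried the same arrangement, with TTCNNNGAA starting 11 bases before the ISRE core. This spacing was noticed in their sequences and then searched: 5 of all 32851 windows held it (0.0152%), those of Gm12185, Igtp, Irgm2, Tgtp1 and Tgtp2. The Igtp and Irgm2 stretches are alike well beyond the motifs, and Tgtp1 and Tgtp2 are near-identical copies. The 5 windows are therefore not independent finds. The 130 bases before the start are shown for these GTPases, 5′ to 3′ along the gene, with both motifs in capitals.
Igtp (chr11:58199426-58199555, plus strand): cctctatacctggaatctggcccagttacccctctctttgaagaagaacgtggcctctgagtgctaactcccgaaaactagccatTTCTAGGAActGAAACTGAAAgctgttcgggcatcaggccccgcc
Irgm2 (chr11:58214847-58214976, plus strand): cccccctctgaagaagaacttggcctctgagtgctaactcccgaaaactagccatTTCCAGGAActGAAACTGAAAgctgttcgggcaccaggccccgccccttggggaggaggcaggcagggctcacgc
Tgtp1 (chr11:48992247-48992376, minus strand): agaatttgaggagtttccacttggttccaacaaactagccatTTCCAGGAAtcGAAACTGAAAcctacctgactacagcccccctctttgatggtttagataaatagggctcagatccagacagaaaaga

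Isg15, Ifit1 and Rsad2, described below for their levels in liver, held the ISRE core without TTCNNNGAA. The capitals mark the core's matches on either strand, and in Isg15 3 matches overlap.
Isg15 (chr4:156200819-156200948, minus strand): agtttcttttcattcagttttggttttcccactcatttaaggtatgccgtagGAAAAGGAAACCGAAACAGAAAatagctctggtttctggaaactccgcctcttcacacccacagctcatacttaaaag
Ifit1 (chr19:34640759-34640888, plus strand): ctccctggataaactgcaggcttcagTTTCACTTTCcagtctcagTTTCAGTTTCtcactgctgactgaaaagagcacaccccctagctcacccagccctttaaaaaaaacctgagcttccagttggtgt
Rsad2 (chr12:26456453-26456582, minus strand): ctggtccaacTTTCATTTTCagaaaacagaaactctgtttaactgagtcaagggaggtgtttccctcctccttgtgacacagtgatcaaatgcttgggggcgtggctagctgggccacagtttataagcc

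Irf1 and Gbp3, the members highest in lung, differed in this respect: the Irf1 window held only TTCNNNGAA and the Gbp3 window only the ISRE core, in 2 overlapping matches.
Irf1 (chr11:53769884-53770013, plus strand): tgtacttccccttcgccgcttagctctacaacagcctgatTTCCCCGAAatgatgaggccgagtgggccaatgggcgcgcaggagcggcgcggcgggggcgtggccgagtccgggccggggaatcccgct
Gbp3 (chr3:142559914-142560043, plus strand): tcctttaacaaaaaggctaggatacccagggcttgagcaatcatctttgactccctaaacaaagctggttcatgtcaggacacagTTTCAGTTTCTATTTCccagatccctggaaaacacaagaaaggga

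Values are TPM (a transcript's share of its library's RNA, per transcript length and scaled to a fixed total), which keep no read depth, so no counting interval can be given. Between 14314 and 19797 genes were above 0 TPM in a library. The coefficient of variation among the 3 libraries of a site, as the median of members that reached 10 TPM, ran from 3.32% in lymph node to 14.9% in lung, with 13.6% in liver. Foxp3 was present at every site, at means of 88.7 to 238.5 TPM. Bone marrow and blood stood apart: 14 neutrophil and monocyte genes summed to 40038 to 40238 TPM in bone marrow and 27130 to 27965 TPM in blood, with all 14 at or above 1 TPM, against 41.4 to 1711 TPM elsewhere. The sum of 20 T cell genes was 3535 to 3663 TPM in blood, 5311 to 5439 in bone marrow and 5653 to 8306 at the other sites. In such mixed RNA, fewer cells of a type and less RNA per cell cannot be told apart. Differences were therefore also computed with each library scaled to those 20 T cell genes, called T cell scaling below. It moved the median log2 difference from spleen over all genes by 0.69 for blood and 0.30 for bone marrow, by 0.11 for lung, by 0.00 for liver and by -0.17 for lymph node.

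**Figure D1:**
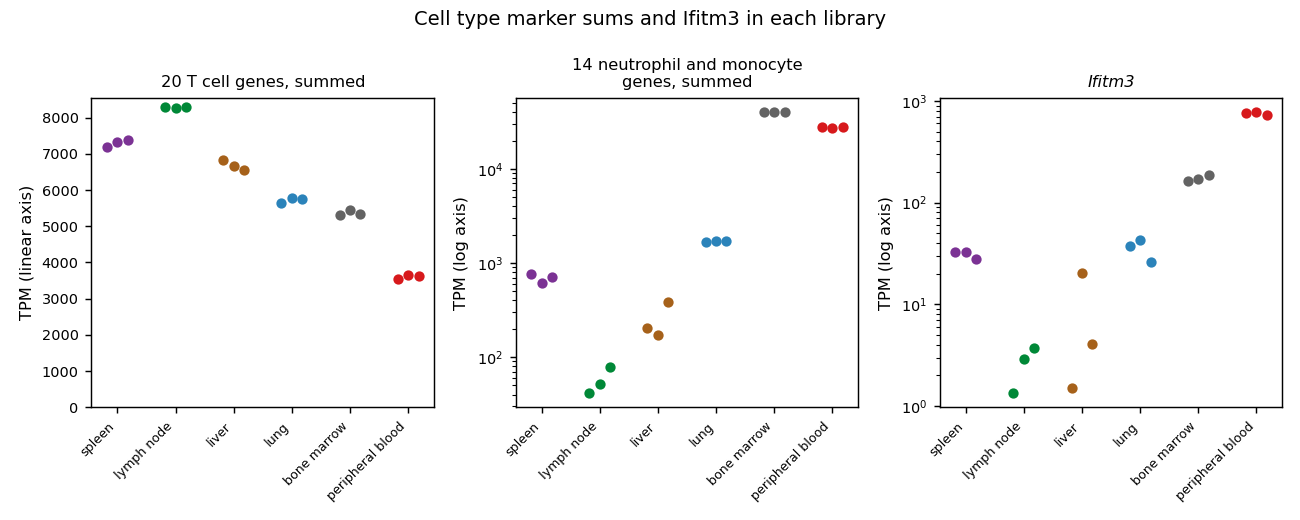
Summed TPM of 20 T cell genes (linear axis), of 14 neutrophil and monocyte genes (log axis), and TPM of Ifitm3 (log axis); each dot is 1 library, coloured by site. Bone marrow and blood libraries have the highest neutrophil and monocyte sums and the highest Ifitm3, and blood libraries the lowest T cell sum.

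Nearly all of the interferon response genes differed among the sites. In TPM as deposited, lung most often had the lowest mean of a gene and blood most often the highest. Summed without Ifitm3, the members had means of 2676 TPM in liver, 2600 in blood, 1950 in bone marrow and 1945 in lung. The SDs of these sums were 123, 42.3, 24.9 and 75.4 TPM (n = 3). All 41 passed the filter for testing, and 39 passed the F test among the 6 sites (limma, adjusted p under 0.05 over 16694 genes), where 68% of all genes tested passed. Dhx58 (adjusted p = 0.117) and Ifi44 (adjusted p = 0.281) did not. Without the blood and bone marrow libraries, 32 of the 40 members tested (all but Ifi44) passed among the other 4 sites, against 48.1% of the genes tested. Lung had the lowest mean for 24 genes and bone marrow for 9, while blood had the highest for 16, liver for 10, lymph node for 9, spleen for 4 and lung for 2. For 17 of the 41 genes (41.5%) all 3 lung libraries lay below all 15 others, as they did for 6.63% of all genes tested. For 13 genes (31.7%) all 3 blood libraries lay above all others, against 10.1% of all genes. For 7 genes (17.1%) all 3 liver libraries did, against 2.05%. Bone marrow lay below all other libraries for 4 genes (9.76%), against 0.827%, and above them for 0, against 5.28%. Lung lay above for Irf1 and Gbp3 (4.88% of members, 6.24% of all genes), spleen above for Bst2 (2.44%, against 2.05%), and lymph node above for Tgtp1 (2.44%, against 5.63%) and below for Rsad2 (2.44%, against 1.28%). No member lay below all others in spleen, liver or blood, where 2.62%, 2.6% and 4.79% of all genes did.

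**Figure D2:**
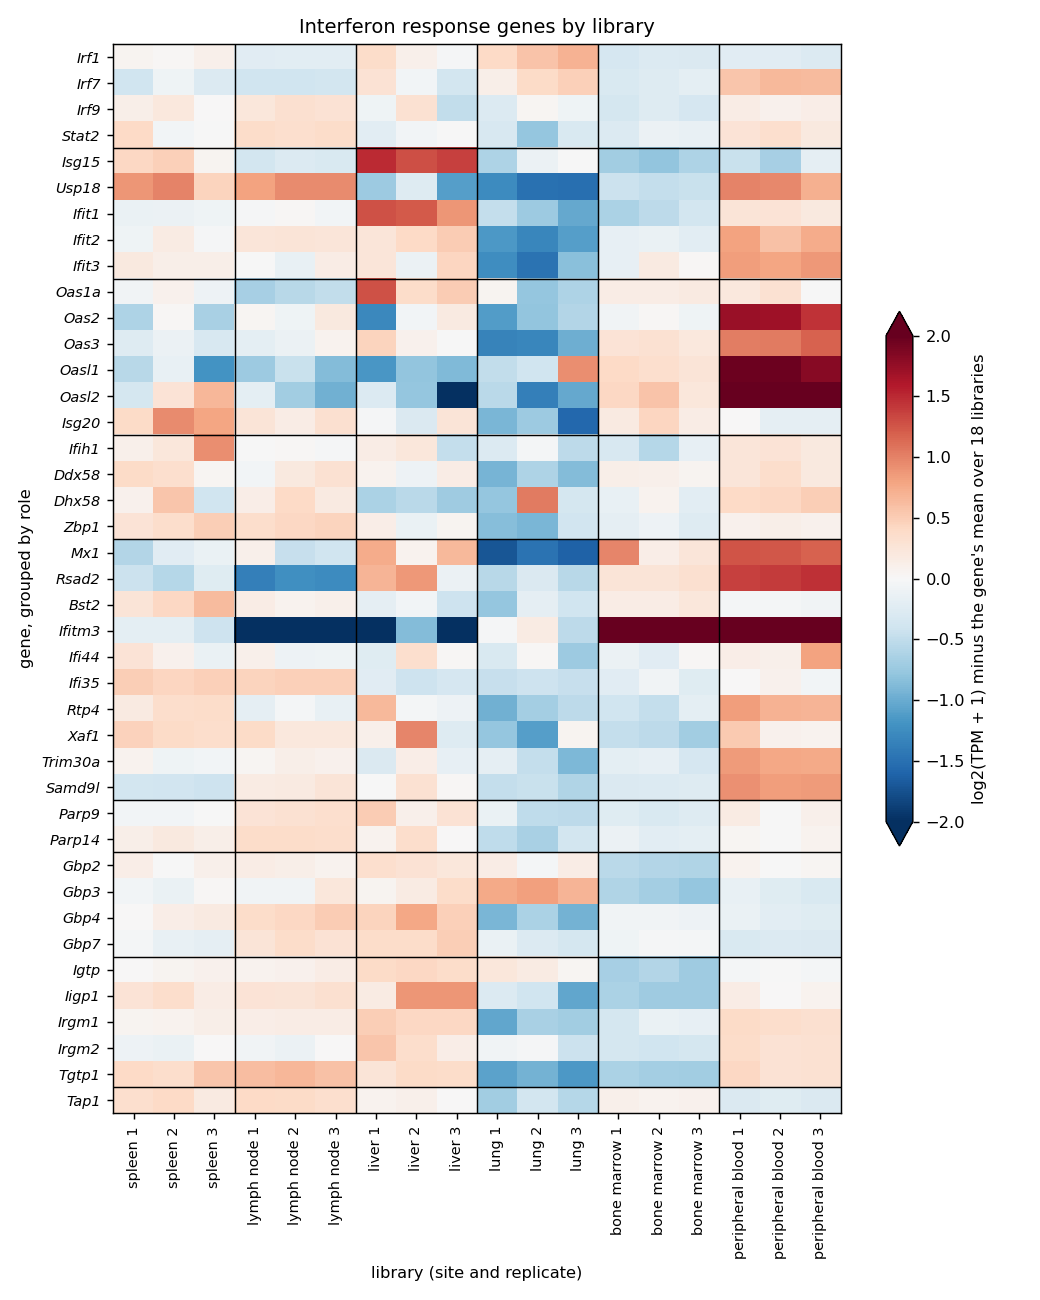
Each row is 1 of the 41 genes, grouped by role, and each column 1 library; colour gives log2(TPM + 1) minus the gene's mean over the 18 libraries, cut at -2 and 2. The lung columns are mostly blue (lowest mean for 24 genes) and the blood columns are red for Oas2, Oas3, Oasl1, Oasl2, Mx1, Rsad2 and Ifitm3.

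Among the transcription factors, Irf1, Irf7 and Stat2 had different site patterns. Irf1, an early target of interferon gamma, stood at 298, 336 and 367 TPM in lung, 291, 243 and 221 in liver, 234, 228 and 241 in spleen, 193, 194 and 195 in lymph node, 178, 187 and 184 in bone marrow and 192, 192 and 187 in blood. All lung libraries lay above all others and all bone marrow libraries below all others, though the nearest blood library was at 187.47 against 187.26 TPM. Irf7, which amplifies type I interferon production, stood at 115, 123 and 122 TPM in blood and 85.1, 102 and 109 in lung, against 58.8 to 95.9 at the other sites. Blood lay above every other library and lung overlapped liver. Stat2, part of the ISRE-binding complex, stood at 36.5, 26.5 and 37.0 TPM in lung, below the 37.9 to 60.5 TPM of all other libraries. Irf9, its partner, had the smallest range of site means among members of at least 10 TPM everywhere, 0.59 on the log2 scale, from 75.2 ± 2.73 TPM in bone marrow to 113 ± 3.86 in lymph node (SD, n = 3). Against spleen, lung was higher for Irf1 (log2 difference 0.50, SE 0.08, adjusted p = 0.000165) and Irf7 (0.58, SE 0.13, adjusted p = 0.0025) and lower for Stat2 (-0.57, SE 0.13, adjusted p = 0.00262).

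The ubiquitin-like modifier Isg15, its protease Usp18 and the RNA-binding IFIT proteins split liver from lung. Isg15 stood at 159, 137 and 147 TPM in liver, 74.7, 78.3 and 57.9 in spleen, 43.0, 46.3 and 45.2 in lymph node, 36.1, 51.4 and 55.6 in lung, 34.1, 31.9 and 36.0 in bone marrow and 40.6, 35.0 and 49.1 in blood. Liver lay above every other library. Ifit1 followed the same order at the top, with 45.6, 44.0 and 34.5 TPM in liver against 8.46 to 22.3 TPM elsewhere. Usp18, which removes Isg15 from proteins and dampens the type I receptor, did not: it stood at 8.25, 11.8 and 6.16 TPM in liver, 5.39, 4.45 and 4.38 in lung and 10.3, 9.95 and 10.2 in bone marrow, against 27.2, 29.6 and 19.9 in spleen, 25.9, 28.5 and 28.6 in lymph node and 29.5, 28.8 and 24.0 in blood. So the liver libraries were the highest for Isg15 and lay below spleen, lymph node and blood for Usp18. Ifit2 stood at 9.09, 8.07 and 9.43 TPM in lung and 38.2, 32.6 and 36.6 in blood, and Ifit3 at 8.46, 7.05 and 11.6 in lung and 39.1, 38.0 and 40.1 in blood, below and above all other libraries. Ifit3 has a near-identical copy, Ifit3b, and their split is uncertain.

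Some members of the 2′-5′-oligoadenylate synthetase family, though not all, make the signal that activates RNase L when they meet double-stranded RNA. Oas2, Oas3, Oasl1 and Oasl2 were highest in blood, unlike Oas1a. Oas2 stood at 18.6, 18.2 and 15.2 TPM in blood and at 1.42 to 5.76 in the other 15 libraries. Oas3 stood at 29.2, 29.5 and 32.9 TPM in blood, 17.1, 17.4 and 16.2 in bone marrow and 4.91, 5.0 and 6.56 in lung, with 10.9 to 19.3 at the remaining sites. Blood lay above and lung below all other libraries. Oasl1 stood at 23.5, 23.6 and 21.4 TPM in blood and 7.29, 6.95 and 6.53 in bone marrow, while lung held 3.47, 3.77 and 11.1, so 1 lung library passed the bone marrow ones. Oasl2 stood at 37.7, 42.3 and 37.1 TPM in blood and at 11.4 or less elsewhere, listed at 0 in 1 liver library. Oas1a had another order: 52.3, 27.3 and 30.2 TPM in liver, above the 11.9 to 26.2 TPM of all other libraries, with its split from the similar Oas1g uncertain. Isg20, an RNA exonuclease, stood at 58.8, 87.6 and 78.9 TPM in spleen and 23.4, 26.9 and 14.6 in lung, below all other libraries.

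Of the nucleic acid sensors, Ddx58 and Zbp1 were lowest in lung. Ddx58 (RIG-I), a sensor of viral RNA, stood at 28.7, 36.0 and 30.2 TPM in lung and 52.0 to 73.2 TPM everywhere else. Zbp1, a sensor of Z-form nucleic acid that can trigger cell death, stood at 41.7, 39.8 and 58.0 TPM in lung and 63.6 to 107 elsewhere. Neither overlapped the other sites. Ifih1 (MDA5) had overlapping sites, with means from 12.7 ± 1.94 TPM in bone marrow to 23.1 ± 7.9 in spleen (SD, n = 3). Dhx58 (LGP2), which did not pass the F test, held 42.7 TPM in 1 lung library against 11.4 and 15.8 in the other lung libraries.

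Antiviral effectors had the largest span of any role, owing to Ifitm3, which blocks fusion of viruses with endosomes. Ifitm3 stood at 753, 778 and 734 TPM in blood, 164, 171 and 189 in bone marrow, 37.1, 42.6 and 26.1 in lung, 32.8, 32.9 and 28.1 in spleen, 1.51, 20.3 and 4.05 in liver and 1.34, 2.91 and 3.74 in lymph node. Blood lay above all others and bone marrow next, and liver overlapped lymph node. Sites with high Ifitm3 also had high neutrophil and monocyte genes, whose part in the result was not tested. Blood held more Ifitm3 than bone marrow and a lower sum of those 14 genes, of which 7 were called higher in blood and 4 lower. Single markers were higher in blood than in bone marrow, with Csf1r at 205.7 ± 8.16 against 24.8 ± 0.524 TPM and Lyz2 at 7469 ± 107 against 2809 ± 67.3 TPM, while S100a9 was lower, at 9048 ± 305 against 20700 ± 20.4 TPM (SD, n = 3).

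Mx1, a GTPase that traps viral nucleoproteins, stood at 23.0, 22.8 and 21.8 TPM in blood, 18.6, 9.93 and 10.9 in bone marrow, 15.7, 9.53 and 14.6 in liver, 5.68, 7.57 and 8.16 in spleen, 9.74, 6.27 and 6.64 in lymph node and 2.07, 2.59 and 2.27 in lung. Blood lay above and lung below all other libraries. Rsad2 (viperin), which makes a chain-terminating nucleotide, stood at 20.1, 20.5 and 21.5 TPM in blood, 12.1, 13.9 and 6.59 in liver, 8.85, 8.79 and 9.29 in bone marrow, 5.09, 4.50 and 5.95 in spleen, 4.59, 5.74 and 4.56 in lung and 2.19, 2.51 and 2.42 in lymph node. Here lymph node, not lung, lay below all others. Samd9l, an antiviral factor that restrains translation, stood at 165, 156 and 158 TPM in blood and 57.0 to 108 elsewhere, and Trim30a at 132, 124 and 124 in blood and 38.5 to 79.6 elsewhere, its split from Trim30d uncertain. Rtp4 had the same extremes, at 66.1 to 73.9 TPM in blood and 20.5 to 28.4 in lung. Bst2 (tetherin), which holds virus at the cell surface and is also a marker of plasmacytoid dendritic cells, stood at 109, 122 and 142 TPM in spleen, above all other libraries. Of 8 markers of those cells, Bst2 among them, 4 were called higher and 1 lower in bone marrow than in spleen. Of all genes 18.2% and 5.92% were, and the part of those cells was not tested. Ifi35 stood at 57.4 to 59.0 TPM in lung, below all others, and at 107.5 to 111.6 in spleen and lymph node. Liver was close to lung, at 59.4 to 67.7 TPM, and the limma contrast of lung with liver was not called (-0.12, adjusted p = 0.187). Xaf1 ranged from 17.7 to 78.4 TPM with the extremes in lung and liver, and Ifi44 did not exceed 1.88 TPM in any library.

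Parp14 and Parp9, ADP-ribosyltransferase family proteins linked to STAT signalling, had a narrow range. Parp14 stood at 36.1, 32.7 and 40.2 TPM in lung, below the 44.9 to 67.3 TPM of all other libraries. Parp9 means ran from 35.3 ± 5.9 TPM in lung to 57.3 ± 8.43 in liver, with 57.2 ± 1.19 in lymph node (SD, n = 3), and lung overlapped bone marrow.

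The guanylate-binding proteins, GTPases that coat and lyse microbe-containing vacuoles, split between Gbp3 and Gbp4. Gbp3 stood at 91.0, 94.4 and 85.8 TPM in lung, 55.2, 60.1 and 68.7 in liver, 51.1, 48.4 and 54.0 in spleen, 50.7, 50.9 and 62.5 in lymph node, 48.0, 44.9 and 42.8 in blood and 34.9, 32.7 and 30.8 in bone marrow. Lung lay above and bone marrow below all others. Gbp4 went the other way in lung, at 56.1, 68.5 and 55.3 TPM, below all other libraries, and stood at 146, 183 and 149 in liver and 138, 143 and 153 in lymph node. Gbp2 stood at 82.5, 80.2 and 76.8 TPM in liver, 44.8, 43.1 and 42.6 in bone marrow and 63.4 to 72.5 at the other 4 sites. Gbp7 was also highest in liver, at 83.1, 83.3 and 90.8 TPM, just above the 77.1, 82.9 and 79.2 of lymph node.

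The immunity-related GTPases, which act on the same vacuoles and on autophagy, were low in bone marrow. Igtp stood at 255, 262 and 252 TPM in liver, 198, 204 and 208 in spleen, 205, 207 and 216 in lymph node, 230.1, 220.0 and 201 in lung, 191, 195 and 191 in blood and 123, 129.8 and 119 in bone marrow. Liver lay above and bone marrow below all others, and lung overlapped spleen and lymph node. Tgtp1, whose promoter carries the same motif pair, was low in lung as well, at 19.3, 21.2 and 18.3 TPM, with 26.4, 25.7 and 25.5 in bone marrow and 50.4 to 66.7 at the other sites. The split of Tgtp1 from its near-identical copy Tgtp2 is uncertain. Irgm2, the third gene with that pair, lay at 36.4 to 48.5 TPM in lung and 37.1 to 38.3 in bone marrow, against 54.2 to 72.9 in liver. Irgm1 stood at 33.1, 44.0 and 42.4 TPM in lung and 97.8, 92.4 and 92.1 in liver, below and above all other libraries. Iigp1 stood at 29.1, 27.6 and 27.6 TPM in bone marrow, 37.6, 34.6 and 21.7 in lung and 51.7, 85.7 and 85.0 in liver.

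Tap1, which carries peptides to MHC class I molecules, stood at 132, 166 and 145 TPM in lung, below all others, 176, 181 and 175 in blood, and 215 to 284 at the other 4 sites.

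**Figure D3:**
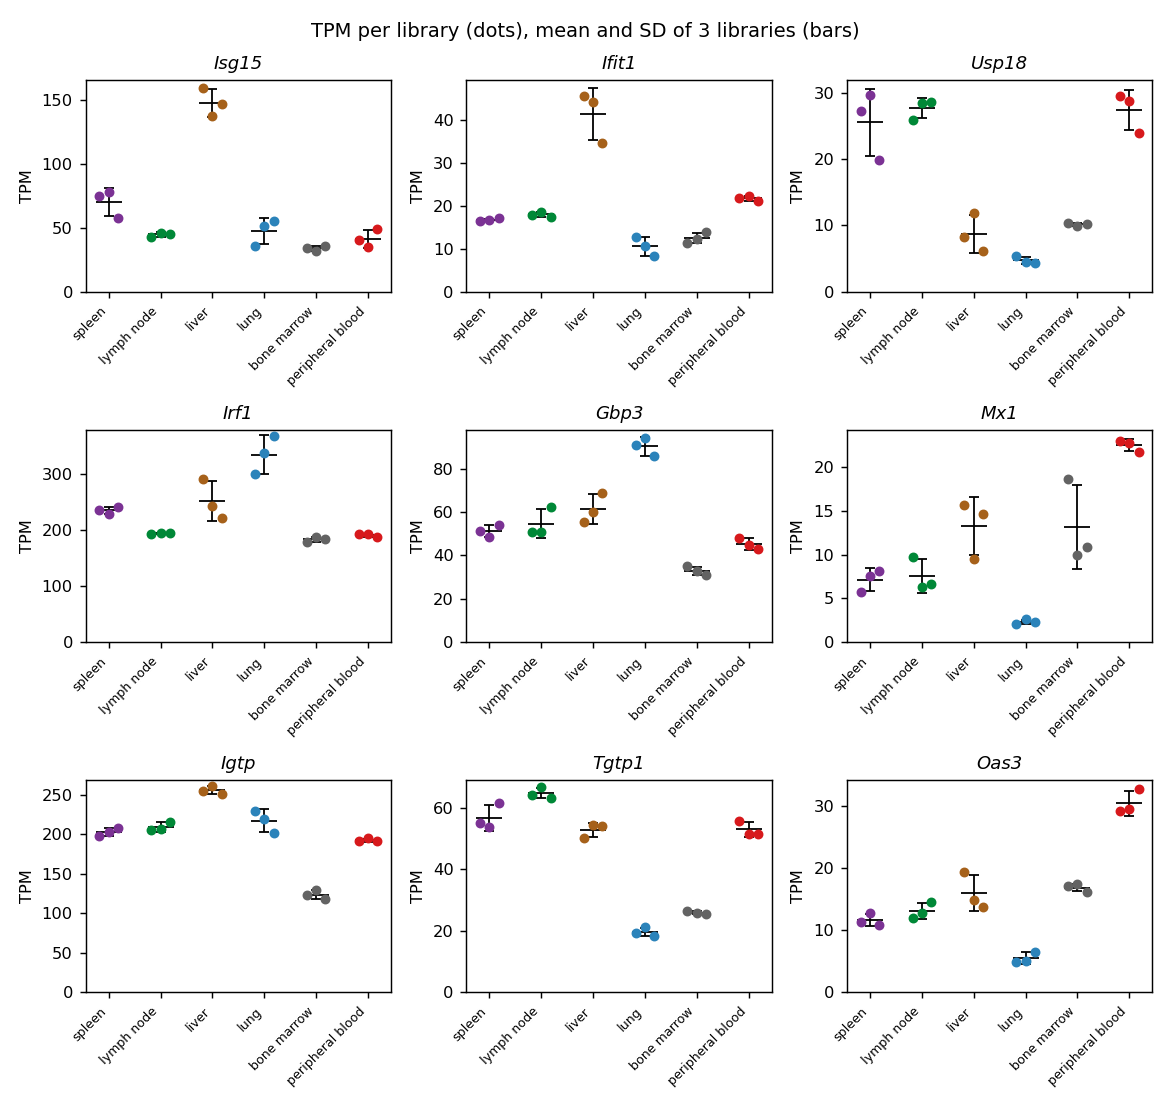
TPM (linear axes from 0) of 9 genes at the 6 sites; dots are libraries and bars the mean and SD of 3 libraries. Liver stands highest for Isg15, Ifit1 and Igtp, lung highest for Irf1 and Gbp3 and lowest for Usp18, Mx1, Tgtp1 and Oas3, and blood highest for Mx1 and Oas3.

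Most interferon response genes were lower in the lung Treg libraries than in spleen. In the linear model, 24 of the 41 were called lower and 3 higher (Irf1, Irf7 and Gbp3), against 22.8% lower and 18% higher of all genes tested. The median log2 difference was -0.63 over the members and -0.08 over all genes. The leaders were Usp18 (-2.20, SE 0.19, adjusted p = 1.67e-07), Isg20 (-1.77, SE 0.20, adjusted p = 2.69e-06) and Tgtp1 (-1.49, SE 0.08, adjusted p = 6.42e-10). Gbp3 led upwards (0.81, SE 0.10, adjusted p = 9.27e-06). By role, 5 of 5 Isg15, Usp18 and IFIT genes, 3 of 4 sensors, 6 of 10 effectors, 2 of 2 PARP genes, 3 of 5 IRG GTPases, 2 of 6 OAS and Isg20 genes and Tap1 were called lower. The guanylate-binding proteins had 1 of 4 lower and 1 higher, and the transcription factors 1 of 4 lower and 2 higher. With T cell scaling 19 were lower and 5 higher, where 15.5% and 23.5% of all genes were, and Stat2 (-0.34, adjusted p = 0.0607), Isg15 (0.109), Ifih1 (0.099), Trim30a (0.205) and Parp9 (0.509) lost their calls. The role counts of lower genes were then 4 of 5 for Isg15, Usp18 and the IFIT genes, 2 of 4 sensors, 5 of 10 effectors, 1 of 2 PARP genes and 3 of 5 IRG GTPases, while Igtp (0.33) and Gbp2 (0.24) were called higher. Markers of other cells differed between the same libraries: 6 B cell genes summed to 112 to 158 TPM in lung and 489 to 567 in spleen, and 5 of 6 lung epithelium genes were at or above 1 TPM in lung (sum 225 to 297 TPM) with sums of 1.6 TPM or less in spleen. Their part in the result was not tested.

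Set against liver, the other non-lymphoid organ, lung was lower as well. Of the 41 genes, 28 were called lower and 5 higher, against 17.6% and 17.3% of all genes, with a median of -0.65 against 0.00. Mx1 (-2.09, SE 0.24, adjusted p = 6.12e-06), Ifit1 (-1.88, SE 0.14, adjusted p = 5.74e-08) and Isg15 (-1.63, SE 0.16, adjusted p = 8.49e-07) led. All 5 IRG GTPases and all 5 Isg15, Usp18 and IFIT genes were lower, though Usp18 was not called with library weights (adjusted p = 0.0925) nor Irgm2 under T cell scaling (-0.28, adjusted p = 0.0751). Higher in lung were Ifitm3 (2.46, SE 0.51, adjusted p = 0.00146), Gbp3 (0.56, though adjusted p = 0.0966 with library weights), Irf1 (0.41), Irf7 (0.37) and Oasl1 (0.95, adjusted p = 0.0341). Under T cell scaling 22 were lower and 5 higher, against 11.1% and 25.6% of all genes, and the called decreases of Gbp2 and Igtp changed sign. The sum of the 14 neutrophil and monocyte genes was 1662 to 1711 TPM in lung and 170 to 382 in liver, and its part was not tested.

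Liver against spleen was a split, with 15 genes called higher and 8 lower, where 14% and 17.3% of all genes were. With estimated library weights these counts fell to 8 and 4, and without the blood and bone marrow libraries to 10 and 5. Shares of all genes are not given for those settings. Ifit1 (1.24, SE 0.14, adjusted p = 6.62e-06), Isg15 (1.07, SE 0.16, adjusted p = 8.28e-05) and Rsad2 (0.89, SE 0.21, adjusted p = 0.00424) led the rise. Ifitm3 (-2.32, SE 0.51, adjusted p = 0.0027), Usp18 (-1.47, SE 0.19, adjusted p = 2.87e-05) and Ifi35 (-0.79, SE 0.07, adjusted p = 3.84e-07) led the fall. Of the GTPases, 3 of 4 guanylate-binding proteins (Gbp2, Gbp4 and Gbp7) and 3 of 5 IRG GTPases (Igtp, Irgm1 and Irgm2) were higher, by 0.21 to 0.53 on the log2 scale. Gbp2, at 0.21 (adjusted p = 0.0334), lost its call under 8 alternatives, among them without liver replicate 1 or 2 (adjusted p = 0.0757 and 0.0573) and without spleen replicate 2 or 3 (0.123 and 0.0593). Irgm1 lost it with estimated library weights (0.0652). Oas1a (0.75, adjusted p = 0.0176) lost it under 4, such as without liver replicate 1 (0.0756) or spleen replicate 3 (0.0538). Gbp3 (0.25, adjusted p = 0.0716), Iigp1 (0.39, adjusted p = 0.138) and Tgtp1 (-0.10, adjusted p = 0.401) were not called. Hepatocyte genes summed to 7.1 to 16.7 TPM in liver and 1.3 TPM or less in spleen. In liver Apoa2, Ttr and Fabp1 were at 0, and Alb stood at 4.38, 5.10 and 6.69 TPM. Of the 4 hepatocyte genes tested, 2 were called higher in liver than in spleen and 0 lower. Of 6 endothelium genes 5 were called higher and 0 lower, and the part of these cells was not tested. Erythroid genes summed to 10932 to 11969 TPM in liver and 1843 to 1987 in spleen. With mitochondrial, ribosomal protein and haemoglobin genes removed from the total, 11 members were higher and 8 lower, against 11.7% and 19% of all genes. B cell genes summed to 62.9 to 102.5 TPM in liver, below spleen, and their part was not tested.

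Bone marrow against spleen showed 17 genes lower and 5 higher, against 5.92% and 18.2% of all genes, with a median of -0.27 against 0.14. Usp18 (-1.23, SE 0.19, adjusted p = 0.000149), Tgtp1 (-1.10, SE 0.08, adjusted p = 4.75e-08) and Isg15 (-1.02, SE 0.16, adjusted p = 0.000127) led, with Iigp1 at -0.95, Igtp at -0.71, Gbp2 at -0.65 and Gbp3 at -0.63. Ifitm3 (2.45, SE 0.51, adjusted p = 0.00198), Oasl1 (0.96), Mx1 (0.76), Rsad2 (0.70) and Oas3 (0.50) were higher. The bone marrow libraries held the largest neutrophil and monocyte sum, and its part in the result was not tested. Median scaling (the median log2 ratio of libraries set to 0) gave 20 lower and 2 higher, against 7.59% and 14.6% of all genes. Oasl1 was then no longer called (adjusted p = 0.0723). Removal of mitochondrial, ribosomal protein and haemoglobin genes gave 26 lower and 1 higher, against 9.07% and 11.8% of all genes. Under T cell scaling 7 were lower and 8 higher, against 2.72% and 38.2% of all genes. The called decreases of Irf1, Parp14, Irgm1 and Tap1 then changed sign. Igtp (-0.35), Iigp1 (-0.59) and Tgtp1 (-0.74) were still called lower there, while Gbp3 was not (adjusted p = 0.0512). Mx1 lost its call under 5 alternatives and Oas3 under 6, both of them without spleen replicate 1 (adjusted p = 0.119 and 0.0564) or without bone marrow replicate 1 (0.171 and 0.0608).

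Blood against spleen held the largest difference of the 7 comparisons, that of Ifitm3. In blood 14 genes were higher and 7 lower, against 20.1% and 15.3% of all genes, with a median of 0.13 against 0.00. With mitochondrial, ribosomal protein and haemoglobin genes removed from the total, 12 were higher and 14 lower, against 16.3% and 18.7%, with a median of -0.02 against -0.07. Ifitm3 (4.55, SE 0.51, adjusted p = 2.94e-06), Oasl1 (2.55, SE 0.33, adjusted p = 1.29e-05), Oasl2 (2.15, SE 0.50, adjusted p = 0.00302) and Oas2 (2.04, SE 0.31, adjusted p = 7.35e-05) were the most increased, followed by Rsad2 (1.82), Mx1 (1.54), Oas3 (1.31) and Samd9l (1.26). Lower were Isg20 (-0.82), Isg15 (-0.75), Tap1 (-0.58), Bst2 (-0.49), Ifi35 (-0.45), Irf1 (-0.30) and Gbp4 (-0.30), and the sign of each of these 7 turned under T cell scaling. There, 38 of 41 were higher and 0 lower, while 53.3% of all genes were higher and 2.84% lower. Neutrophil and monocyte genes (27130 to 27965 TPM against 617 to 764 in spleen), platelet genes (2748 to 2868 against 7.1 to 8.8) and cytotoxic cell genes (570 to 630.2 against 118 to 129) were also higher in blood, and their part was not tested.

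Blood and bone marrow, the sites with the highest neutrophil and monocyte sums, differed from each other. Of the 41 genes, 28 were higher in blood and 2 lower (Tap1 and Gbp7), against 13% and 18.8% of all genes, with a median of 0.61 against -0.11. Ifitm3 (2.11, SE 0.51, adjusted p = 0.00472), Oasl2 (1.95, SE 0.50, adjusted p = 0.00735) and Oas2 (1.67, SE 0.31, adjusted p = 0.000599) led. All 5 IRG GTPases were higher, from 0.56 for Irgm1 to 1.01 for Tgtp1. Platelet genes summed to 2748 to 2868 TPM in blood and 70.5 to 82.3 in bone marrow, with 7 of 7 called higher in blood. Of the cytotoxic cell genes 7 of 8 were higher in blood, and of the neutrophil and monocyte genes 7 of 14 were higher and 4 lower. The part of these cells was not tested. After T cell scaling 37 were higher and 0 lower, against 31.1% and 8% of all genes. The decrease of Gbp7 (-0.24, adjusted p = 0.0208) also lost its call under 6 alternatives, among them without bone marrow replicate 2 or 3 (0.0691 and 0.0615) and without blood replicate 1 or 3 (0.0636 and 0.0541), and that of Tap1 with median scaling (0.0754).

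Lymph node had the fewest called differences from spleen: 3 genes were higher and 4 lower, against 9.87% and 4.44% of all genes. Samd9l (0.58, SE 0.08, adjusted p = 0.000111), Gbp7 (0.42, SE 0.07, adjusted p = 0.000934) and Gbp4 (0.32, SE 0.09, adjusted p = 0.0333) were higher. Ifitm3 (-3.20, SE 0.51, adjusted p = 0.000493), Rsad2 (-0.87, SE 0.21, adjusted p = 0.0108), Isg15 (-0.63, SE 0.16, adjusted p = 0.0123) and Irf1 (-0.27, SE 0.08, adjusted p = 0.0402) were lower. Of these, Gbp4 lost its call under 10 alternatives and Irf1 under 15. Rsad2 was not called without the blood and bone marrow libraries (adjusted p = 0.0795), nor Gbp7 under T cell scaling (adjusted p = 0.256). Leaving out spleen replicate 1, spleen replicate 2 or lymph node replicate 1 brought the count of called genes from 7 to 4 and ended the call of Isg15. Under T cell scaling 1 was higher and 10 were lower, against 2.25% and 7.51% of all genes. Neutrophil and monocyte genes summed to 41.4 to 78.8 TPM in lymph node, with 6 of 14 at or above 1 TPM, and their part was not tested. The 5 comparisons with spleen share the same 3 spleen libraries.

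**Figure D4:**
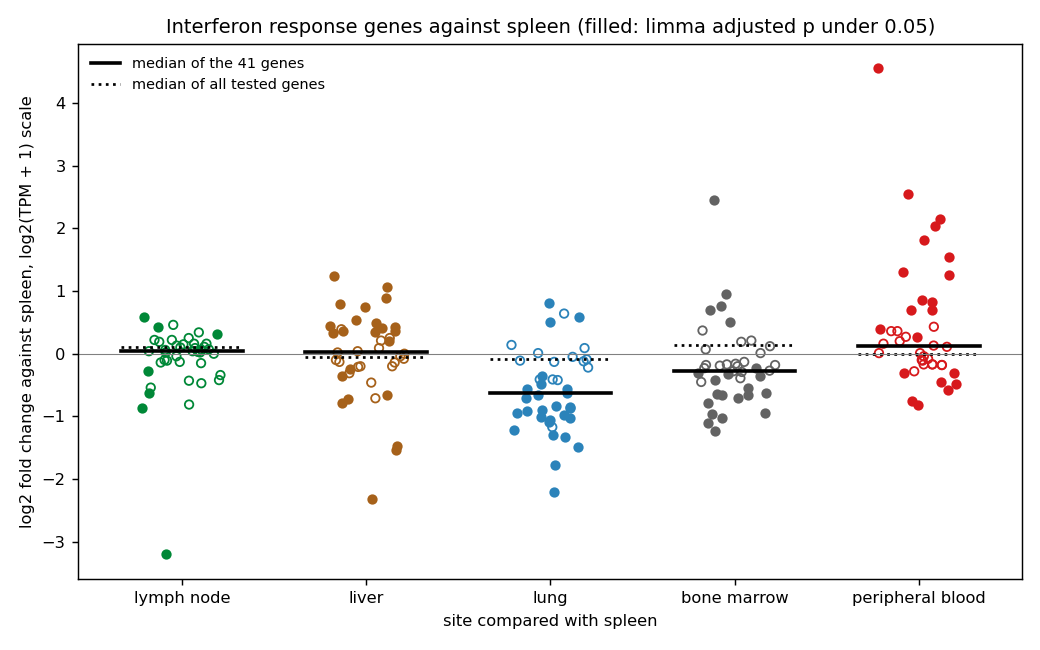
Log2 difference from spleen (log2(TPM + 1) scale) of each of the 41 genes at the other 5 sites; filled dots passed the limma test at adjusted p under 0.05. The solid bars, medians of the 41 genes, lie at -0.63 in lung and -0.27 in bone marrow, below the dotted medians of all genes at -0.08 and 0.14.

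The rest of the pathway was read from lists of ligands, receptors, kinases and STATs, sensors, inhibitors and other induced genes. Of 12 interferon genes, 3 passed the filter and 1, Ifng, passed the F test. Ifng, the type II interferon, stood at 81.7, 81.8 and 68.0 TPM in liver, 27.5, 24.1 and 24.1 in bone marrow, 5.54, 15.5 and 7.27 in lung, 10.3, 7.27 and 5.53 in spleen, 3.85, 8.57 and 5.81 in blood and 2.78, 3.07 and 1.90 in lymph node. Liver lay above all others and exceeded spleen by 3.20 (SE 0.31, adjusted p = 1.39e-06). Ifna4 was at 13.1 TPM in 1 liver library and listed at 0 in the other 17 libraries.

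Ifngr1, Ifnar1 and Jak2 were highest in lung, the site with the lowest mean for 24 of the 41 members. Of the 6 receptor genes, 3 were called higher in lung than in spleen and 0 lower (18% and 22.8% of all genes). In blood against spleen 6 were higher and 0 lower (20.1% and 15.3% of all genes). The median log2 differences of the receptor genes were 0.84 in lung and 0.83 in blood. Ifngr1, the binding chain of the interferon gamma receptor, stood at 1732, 1756 and 1721 TPM in lung, 619, 648 and 594 in liver, 451, 456 and 440.3 in bone marrow, 336, 331 and 331 in blood, 144, 137 and 155 in spleen and 130.1, 134 and 131 in lymph node. Lung exceeded spleen by 3.57 (SE 0.04, adjusted p = 5.39e-17). Ifnar1 stood at 256, 285 and 233 TPM in lung and 69.7 to 143 elsewhere, a difference from spleen of 1.77 (SE 0.07, adjusted p = 2.81e-11). Ifngr2 was also higher in lung than in spleen (1.60, SE 0.24, adjusted p = 6.82e-05), while Ifnar2 did not pass the F test (adjusted p = 0.133). Jak2, the kinase bound to Ifngr2, stood at 411, 386 and 335 TPM in lung and 51.9 to 109.5 elsewhere, 2.74 above spleen (SE 0.08, adjusted p = 4.59e-13). Jak1 was 0.64 higher and Tyk2, a kinase of the type I receptor, 0.60 lower in lung (log2 differences 0.64 and -0.60). Stat3, used more by interleukin 6 family cytokines, stood at 416, 370.1 and 527 TPM in lung and 128, 128 and 121 in spleen, and was higher in lung by 1.78 (SE 0.14, adjusted p = 6.76e-08). These signs held under T cell scaling.

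Among 7 inhibitors, 7 passed the F test, as did 68% of all genes. Socs3, a feedback inhibitor of cytokine receptors, stood at 557, 592 and 626 TPM in lung and 59.6 to 136 elsewhere, 2.73 above spleen (SE 0.10, adjusted p = 4.76e-12). Socs1, the main brake on interferon gamma signalling, stood at 34.4, 26.8 and 31.8 TPM in lung and 30.0, 24.4 and 35.4 in spleen (0.06, adjusted p = 0.835), and at 8.44, 8.62 and 7.89 in blood. Ptpn6 and Irf2 were lower in lung than in spleen, by log2 differences of -2.54 and -1.01. Of 13 sensing and induction genes, 12 passed the F test, against the same 68%. Tmem173 (STING) was lower in lung (-1.74, SE 0.11, adjusted p = 5.59e-09) and Trim25 higher (1.88, SE 0.11, adjusted p = 8.95e-10). Tlr7, an endosomal RNA sensor, stood at 50.4, 49.1 and 56.8 TPM in blood and 4.77 to 15 elsewhere.

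A longer list of other interferon-induced genes was also lower in lung. Of 66 genes on that list 65 were tested and 62 passed the F test (68% of all genes). In lung against spleen 42 were lower and 5 higher, with a median of -0.80, where 22.8% and 18% of all genes were. Against liver 49 were lower and 4 higher, with a median of -0.85, where 17.6% and 17.3% of all genes were. T cell scaling gave counts against spleen of 35 lower and 7 higher, where 15.5% and 23.5% of all genes were. In blood against spleen 26 were higher and 16 lower (20.1% and 15.3% of all genes), and with T cell scaling 49 were higher and 1 lower (53.3% and 2.84%). Ifitm1 and Ifitm2, neighbours of Ifitm3, were 5.47 and 5.53 above spleen in blood (SE 0.43 and 0.19). Cxcl10, a chemokine that draws Cxcr3-bearing T cells, stood at 121, 112 and 106 TPM in liver, 78.4, 45.4 and 30.6 in lung and 21.4, 10.9 and 19.3 in spleen, and both organs exceeded spleen (2.70 and 1.48, adjusted p = 4.67e-06 and 0.000811). Apol9b stood at 76.5, 91.7 and 86.5 TPM in lymph node and at 20.2 or less elsewhere.

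**Figure D5:**
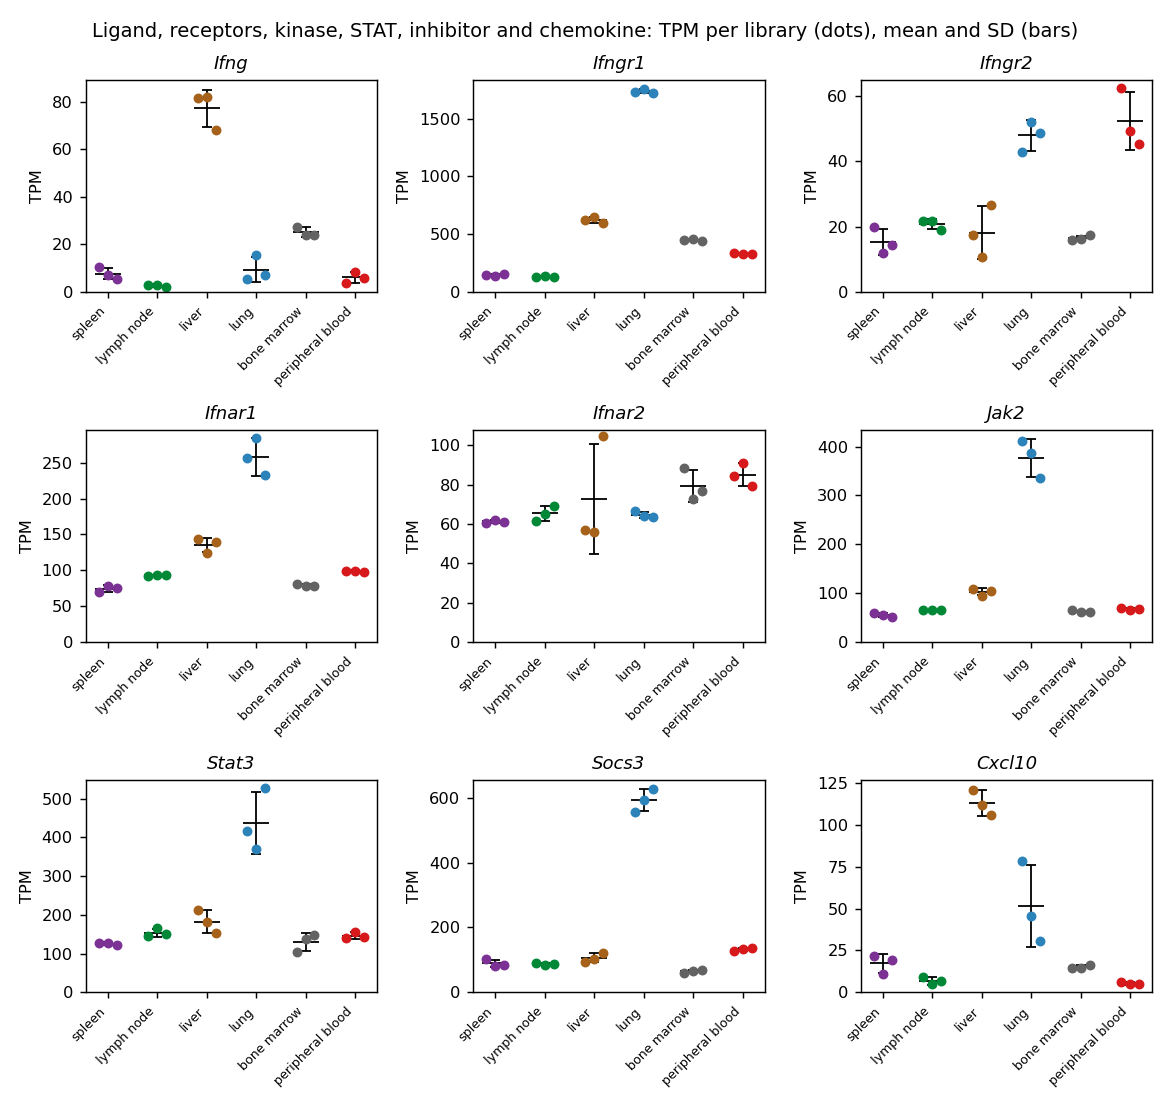
TPM (linear axes from 0) of the ligand Ifng, receptor, kinase and STAT genes, Socs3 and Cxcl10 at the 6 sites; dots are libraries and bars the mean and SD of 3. Lung stands highest for Ifngr1, Ifnar1, Jak2, Stat3 and Socs3, and liver highest for Ifng and Cxcl10.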

How the data were processed

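Per the labels' protocols, poly(A) RNA went into directional libraries after RNAiso Plus extraction and a column clean-up. The authors deposited 1 table of TPM values per library. The submitters' processing notes name STAR, RSEM and mm10 without roles or versions. The annotation and use of strand in counting are not given in the sources used here, so overlapping and antisense genes cannot be told apart. GENCODE M21 symbols matched 55141 of 55487 IDs. The members and the lists were chosen with earlier results of these data known.

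The 16694 genes whose mean reached 1 TPM in any site were tested with limma 3.58.1 in R 4.3.3 on log2(TPM + 1), all 18 libraries in 1 model with a mean per site and no covariate, eBayes with trend and robust. Fold changes on that scale understate changes of low genes. P-values were adjusted by Benjamini-Hochberg over all genes tested, and called at 0.05. The script was tested on simulated data. TPM keeps no depth, so precision rests on the spread of 3 libraries. Lists comprised interferon roles, pathway genes and markers of other cell types. Values were printed for up to 3 called members of at least 10 TPM with the widest range in each role, the 3 largest called differences in each direction of a comparison, and the 3 members of at least 10 TPM everywhere with the smallest range. Every receptor, kinase and STAT could be named, and the 5 widest-ranging genes of other lists, except 1 gene that is not reported here. Further members were named after their values were seen. The alternatives covered the pseudocount (0.1), filter, scaling, library weights, a replicate block, each library left out and, added after seeing the data, 4 sites alone. T cell scaling used 20 genes, including Cd3e, Cd4 and Lck.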

Additional observations from a re-analysis of the deposited data

How the results depend on the processing

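TPM keeps no depth, liver and lung libraries varied most, and 3 libraries per site with no stated animals limit each difference. The count passing the F test ranged from 37 to 40 with 1 library left out. Those counts ranged from 19 to 23 for blood against spleen, 4 to 10 for lymph node against spleen, 15 to 25 for bone marrow against spleen, 16 to 24 for liver against spleen, 25 to 29 for lung against spleen, 23 to 31 for blood against bone marrow and 28 to 33 for lung against liver. T cell scaling gave 38 called genes for blood against spleen in place of 21, and 11 for lymph node against spleen in place of 7. Library weights gave 14 for lymph node and 12 for liver against spleen, the latter in place of 23. The model of 4 sites gave 4 for lymph node and 15 for liver against spleen. The cause of these shifts was not tested. Under T cell scaling the signs of all 7 called decreases in blood against spleen turned (Isg20 to 0.02, Isg15 to 0.10, Tap1 to 0.28, Bst2 to 0.36, Ifi35 to 0.40, Gbp4 to 0.55 and Irf1 to 0.56). They also turned for Tap1 (0.14) and Gbp7 (0.25) in blood against bone marrow, for Irf1 (0.01), Parp14 (0.04), Irgm1 (0.06) and Tap1 (0.14) in bone marrow against spleen, and for Igtp (0.01) and Gbp2 (0.04) in lung against liver. Oasl2 in blood lost its call against spleen (adjusted p = 0.0948) and bone marrow (adjusted p = 0.151) with a pseudocount of 0.1. The labels number the libraries 1 to 3 at each site. Over all genes tested, same-numbered libraries did not deviate together (45 pairs, r from -0.0345 to 0.0302). A correlation over all genes cannot show whether same-numbered libraries share animals or a sort, which the labels do not state. With the replicate block 38 members passed the F test, and 21, 7, 21, 22, 27, 27 and 31 were called for blood, lymph node, bone marrow, liver and lung against spleen, blood against bone marrow and lung against liver. Shares of all genes are not given for single libraries left out, library weights, the replicate block or the contrasts of the 4-site model. The counts under those settings therefore cannot show whether a shift is particular to the members.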
